A study of Mus musculus with 3 samples.

Results

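Malat1 and Neat1 are long non-coding RNAs that stay in the nucleus, and both carried RBFOX2 crosslinks in primary mouse hepatocytes. Of the 87021 crosslink clusters in the deposited list, 232 lay on these RNAs, 107 on Malat1 and 125 on Neat1. A cluster was counted as a member when its midpoint fell inside the annotated span of the gene (GENCODE M21, GRCm38) on the strand of the gene. Both genes were chosen by their counts in this same list, Malat1 for its high summed count, so those counts are a description and were not tested.

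The libraries were made from hepatocytes of C57BL6/J mice on control diet, plated overnight and irradiated with UV at 150 mJ/cm2, and the crosslinked RNA was pulled down using an antibody against RBFOX2 (RBM9). In eiCLIP, a faster form of iCLIP, the cDNA typically ends where the protein was crosslinked, and its start in the genome marks that position. The labels give 3 samples, all of 1 group, with no knockout and no other antibody. Hepatocytes of several mice were combined for each culture. Cluster calling used the sum of the 3 libraries. No value given here therefore has a spread between libraries, and every interval covers counting error only. A size-matched input was not analysed here. Among the marker genes examined, 4 of 5 hepatocyte genes had a cluster, with 8110 counts in Alb, 2337 in Apob, 639 in Apoa1, 181 in Ttr and none in Serpina1a. Of 9 genes of other liver cell types 4 had one, with 12 to 150 counts, near the 41.8% of all protein-coding genes that had a cluster.

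RBFOX2 is an RNA-binding protein that regulates splicing by binding GCAUG, written here as GCATG, mostly in introns of pre-mRNA. Malat1 is retained in nuclear speckles, the bodies that store splicing factors, and its 3′ end is cut to release a small tRNA-like RNA, mascRNA. Neat1 is the scaffold of paraspeckles. It is made as a short polyadenylated transcript and a long one that share a 5′ end, and the long one is folded in the paraspeckle with both ends outwards.

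High Malat1 clusters, numbered by their rank in count, and the sequence under them are shown first because they carry much of the count of this RNA. Each line gives 30 nt of the RNA in DNA letters (GENCODE M21 transcripts, GRCm38, minus strand, written 5′ to 3′), with the first 10 nt upstream of the cluster. Capitals mark bases inside the cluster.
Malat1 cluster 2 (5389 counts, chr19:5799756-5799785): tctggtccacTGGGATGATGTGATGCTACA
Malat1 cluster 3 (4442 counts, chr19:5796222-5796251): tatagtatgtTTGATACCAGTGCTGGGTGG
Malat1 cluster 4 (4149 counts, chr19:5799292-5799321): agcctggcagTGTGATGACGTAGATGCAGA
Malat1 cluster 5 (3731 counts, chr19:5797424-5797453): cttaggtaaaTGTTTTTGTTCATTTCTGGT
Malat1 cluster 6 (3572 counts, chr19:5797561-5797590): gtgtttccccAAGTGTTTGGagtagtggtt
Malat1 cluster 7 (2938 counts, chr19:5798115-5798144): ggactaagtaCCTTAGGCAGGTgggagatg
Malat1 cluster 8 (2487 counts, chr19:5797734-5797763): gagggggggaTGGGGCTTACTTGTTCTAGC
Malat1 cluster 13 (2088 counts, chr19:5798783-5798812): ggatctgcagTATTGCAtgttagggataga
Cluster 13 was the highest Malat1 cluster with GCATG within 50 nt, and its 3′ edge lay inside the motif.

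The Neat1 clusters are shown in the same way for comparison. Clusters 2 and 3 contained the whole motif further along than the stretch shown.
Neat1 cluster 1 (904 counts, chr19:5845430-5845459): ggctcgctctTGGGGCTAGTGGTGGGGAGG
Neat1 cluster 2 (308 counts, chr19:5824930-5824959): cttgtggttcATTTTTTGGAGTCTGATTTC
Neat1 cluster 3 (267 counts, chr19:5838674-5838703): cactccataaAGGTGCCTGCTGAGCTGTTT
Neat1 cluster 4 (237 counts, chr19:5843417-5843446): atacttttggCACCAGATATGGGACTTGTG
Neat1 cluster 5 (233 counts, chr19:5844551-5844580): ttggtaaaggTGGAGGACACCCTGACTGGG

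Malat1 (ENSMUSG00000092341.3, chromosome 19, 5795690 to 5802672, minus strand) is annotated over its whole length as a single exon of 6983 nt in the transcript Malat1-201. Its 107 clusters summed to 80115 counts (Poisson 95% interval 79561 to 80672), or 2.81% of the 2850863 counts in the list. This was 11473 counts per kb (11394 to 11553). Counts per cluster ran from 33 to 7612, with a median of 253 and quartiles of 112 and 722.5. No Malat1 cluster was at the list minimum of 10, and 106 of the 107 were in the top 10% of all clusters by count, at or above 39.

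Neat1 (ENSMUSG00000092274.3, chromosome 19, 5824708 to 5845478, minus strand) lies 22.035 kb from Malat1 and is likewise a single exon, of 20771 nt, in the transcript Neat1-201. Its 125 clusters summed to 6215 counts (6061 to 6371), or 0.218% of the list, at 299 counts per kb (292 to 307). The median cluster had 27 counts (quartiles 16 and 43, range 10 to 904), and 37 of 125 were in the top 10% of the list.

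Per length, Malat1 had 38.3 times the count of Neat1 but only 2.55 times as many clusters, so the difference lay mainly in the height of the clusters. The median Malat1 cluster was 9.37 times as high as the median Neat1 cluster. Crosslink counts rise with the amount of an RNA as well as with binding. RNA levels were not analysed here, so the contributions of abundance and binding cannot be told apart.

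Among 10738 genes with a cluster, Malat1 ranked 2 by summed count and Neat1 ranked 26. Exons of 234 lncRNA genes held clusters, with a median of 1 cluster and 20 counts per gene and 10.8 counts per kb of exon. Only 3 of them, Malat1, Neat1 and Xist, had at least 100 exonic clusters. Xist, the RNA that coats the inactive X chromosome, had 10045 counts in 135 clusters, or 560 counts per kb.

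Ordered by counts per kb of exon, Malat1 came second among the lncRNA genes, after Gm42418 (166447 counts per kb), a gene that overlaps an rRNA repeat and whose count is therefore uncertain. Next below Malat1 was Rmrp, the RNA of the RNase MRP ribozyme, with 2050 counts per kb, so that Malat1 stood 5.60 times above its nearest lower neighbour. Gm15564 (1747 counts per kb) and Gm26917 (1744 counts per kb) were the next in likeness to Malat1 by this measure. Gm15564 had only 2 clusters on 821 nt of exon, and Gm26917 had 59 on 3329 nt. Neat1 ranked 12, close to Gm23925 (326 counts per kb), Gm12238 (274 counts per kb) and Gm15832 (263 counts per kb), all much shorter genes, of 124 to 1832 nt, with 1 to 12 clusters. For scale, the exons of Alb, the albumin mRNA of hepatocytes, had 3463 counts per kb, which was 3.31 times less than Malat1 and 11.6 times more than Neat1.

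**Figure D1:**
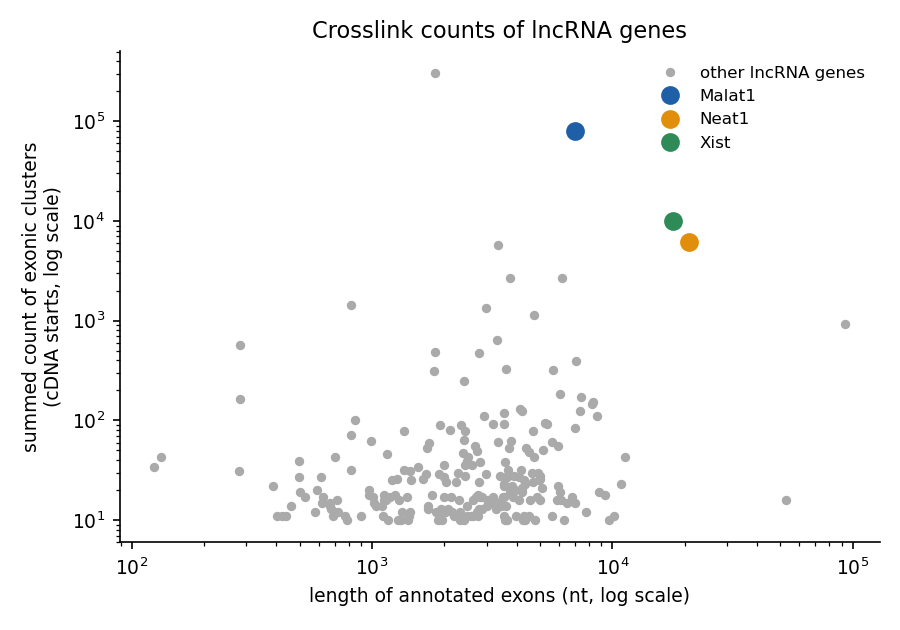
Summed count of exonic clusters (cDNA starts, log scale) against the length of annotated exons (nt, log scale) for the 234 lncRNA genes with a cluster, 1 point per gene. Malat1 (80115 counts) stands above Xist (10045) and Neat1 (6215), and the 1 gene higher than Malat1 is Gm42418.

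Clusters were spread along Malat1 up to its 3′ end region, where the last 347 nt of the annotated span, mascRNA included, held none. The largest stretch between neighbouring clusters was 233 nt (positions 4039 to 4271 from the 5′ end), the median was 36.5 nt, and joining clusters within 200 nt left 3 intervals. One cluster of 155 counts started 1 nt before the annotated 5′ end and had its midpoint inside the gene. The count, in contrast to the clusters, was uneven. Of 10 equal segments, the first had 2166 counts (3103 per kb) and the eighth, positions 4889 to 5586, had 15857 (22718 per kb), a ratio of 7.32. The fourth segment (12909 counts) and the fifth (12648 counts) were the next highest.

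The 5 highest Malat1 clusters held 31.6% of its count and the 12 highest 54.6%. The highest, with 7612 counts, held 9.50% of the count. The second was at chr19:5799719-5799775 (positions 2898 to 2954) and the fourth at chr19:5799266-5799311 (positions 3362 to 3407). The third, at chr19:5796171-5796241 (positions 6432 to 6502), lay near the 3′ end and held 4442 of the 4782 counts of the last segment. Clusters 5, 6 and 8, with 3731, 3572 and 2487 counts, lay together between positions 4920 and 5251.

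**Figure D2:**
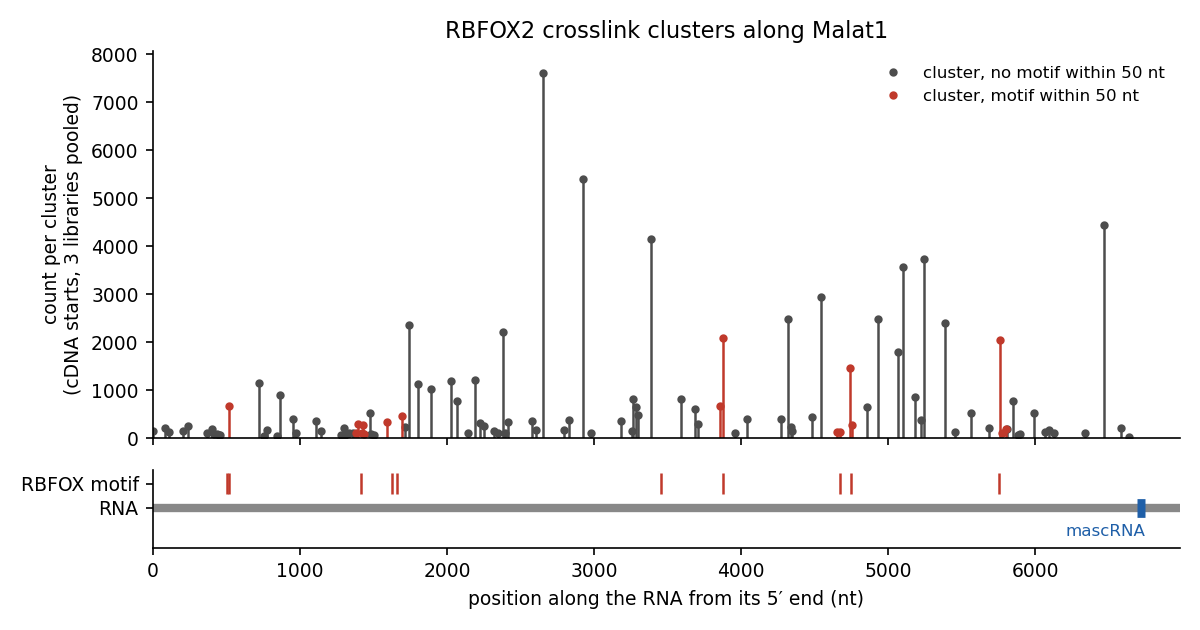
Count per cluster (cDNA starts, 3 libraries pooled) against position along Malat1 from its 5′ end (nt), with each cluster drawn at its midpoint, red where GCATG lies within 50 nt. Red ticks mark the 10 motifs and the blue box mascRNA. The tallest stems, 7612 and 5389 counts, are grey, and no stem reaches past position 6636.

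The 3′ end of the annotated Malat1 span was empty of clusters. The last cluster was a single position, 6636, with 33 counts, and the following 347 nt held none. This stretch includes mascRNA (chromosome 19, 5795924 to 5795981 in RefSeq, positions 6692 to 6749), a 58-nt RNA whose start is 55 nt downstream of the last cluster. Because mascRNA is cut off, most of the 347 nt is not part of the RNA kept in speckles. The 55 nt before it are shorter than the largest stretch between Malat1 clusters, 233 nt. Clusters also overlapped the segments annotated as introns of the 3 short spliced Malat1 transcripts. With any overlap counted, these had 7207 to 7930 counts per kb, against 11473 for the whole RNA. The lowest value, for the intron at positions 436 to 706 (1953 counts), rests mainly on 1 cluster at its edge. That cluster, at positions 705 to 737 with 1157 counts, has its midpoint outside the intron, so by midpoint the value would be lower. A gene nested in Malat1, Gm27694, annotated as a miscellaneous RNA of 86 nt, overlapped 1 cluster of 824 counts.

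On Neat1 the count was highest in the first and the last segment of the RNA. Of 10 equal segments, the first had 2197 counts (35.4% of the gene, 1058 per kb) and the last 1339 (21.5%, 644 per kb). Without its highest cluster the first segment still held 24.3%. Segment 3 had 40 counts in 2 clusters, or 19.3 per kb, 54.9 times less than the first. Segment 7, with 59 counts (28.4 per kb), was nearly as low. Between these extremes, segment 9 had the second-largest number of clusters, 25, with 732 counts (352 per kb), segment 4 had 605 counts (291 per kb) and segment 8 had 525 (253 per kb). The longest stretch without a cluster, 1608 nt (positions 4582 to 6189), fell in segment 3.

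The highest Neat1 cluster, of 904 counts, lay at chr19:5845330-5845449, positions 30 to 149, and so next to the 5′ end. It was 120 nt wide and held 14.5% of the count of the gene. The second highest, with 308 counts, lay at chr19:5824872-5824949, positions 20530 to 20607, close to the 3′ end. The third, with 267 counts at chr19:5838645-5838693 (positions 6786 to 6834), lay apart from the others. Of the 10 highest clusters, 4 lay at or before position 2102 and 5 at or after position 19299.

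The first 3172 nt of Neat1 reach to the 3′ end of its short transcript (Neat1-202, 5842307 to 5845476). They are called the shared portion here, although an intron of 166 nt is annotated in the short transcript at positions 555 to 720, with 5 clusters and 181 counts. It had 35 clusters and 2489 counts, 785 per kb (754 to 816). The 17599 nt downstream, beyond the short transcript and called long-only here, had 90 clusters and 3726 counts, 212 per kb (205 to 219). Another spliced transcript, Neat1-204, is also annotated there, with introns at positions 17820 to 19177 and 19279 to 19907. The shared portion was thus 3.71 times denser in counts and 2.16 times denser in clusters. Without the highest cluster of each portion the ratio of counts was 2.57. The levels of the transcripts were not analysed here. Within the long transcript the last 2000 nt had 670 counts per kb, and the 15599 nt between these and the shared portion had 153.

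**Figure D3:**
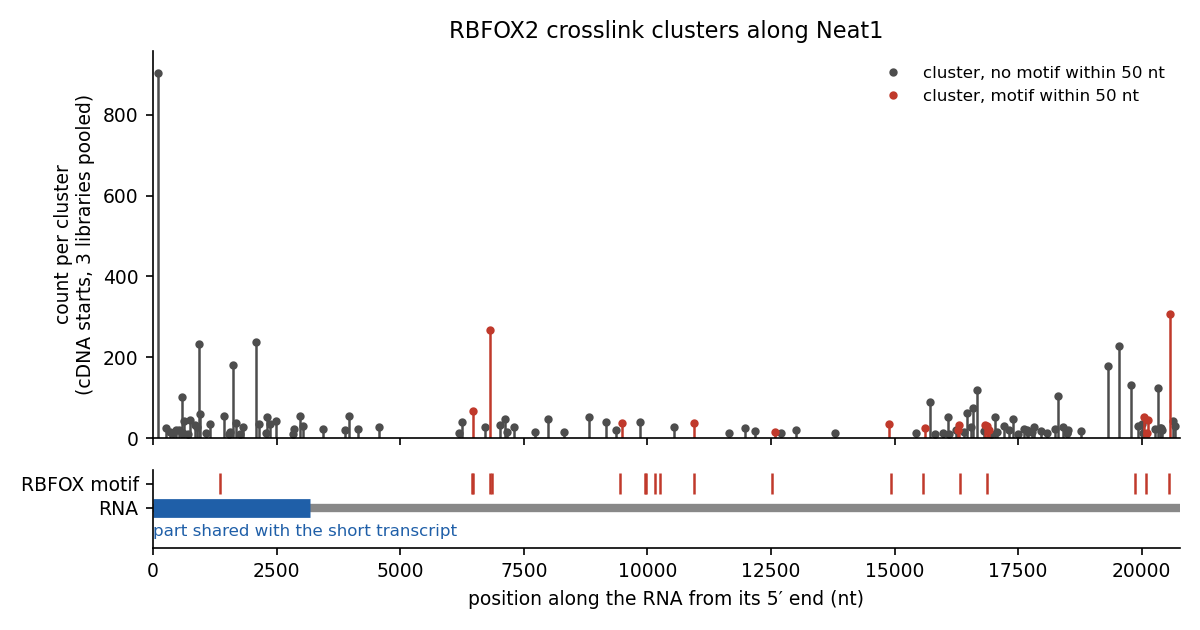
Count per cluster (cDNA starts, 3 libraries pooled) against position along Neat1 from its 5′ end (nt), drawn as for Malat1, with the 19 motifs as red ticks and the portion shared with the short transcript in blue. The cluster of 904 counts stands at the 5′ end, a second group of clusters sits in the last 2 of 10 segments, and segments 3 and 7 are nearly empty.

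Neat1 also hosts 3 small annotated RNAs in its 5′ portion, Gm27533, Gm27505 and Gm28006. These held 48, 46 and 38 counts, or 316, 418 and 311 per kb. The small RNA Gm27702, annotated directly downstream of the Neat1 3′ end, had no cluster.

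Both RNAs were crosslinked on 1 strand only. No cluster lay on the opposite strand of Malat1 or Neat1, also when any overlap with the span was counted. The 5 kb on either side of Malat1 held no cluster on either strand. Beside Neat1, 1 cluster of 26 counts lay downstream on the same strand and 5 clusters with 92 counts together lay upstream on the opposite strand, where the antisense gene Frmd8os is annotated. The list holds no cluster under 10 counts, so lower counts on these strands would not appear in it.

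Most Malat1 and Neat1 clusters were narrow. The median width was 3 nt on Malat1 (quartiles 1 and 8, widest 71 nt) and 5 nt on Neat1 (quartiles 2 and 9, widest 120 nt), against 18 nt over the whole list and 9 nt for 827 clusters in exons of other lncRNA genes. Clusters of a single position numbered 33 on Malat1 and 24 on Neat1. All clusters together covered 818 nt, 11.7%, of Malat1 and 1318 nt, 6.35%, of Neat1. Higher clusters were wider, with Spearman's rho of 0.848 over the 107 Malat1 clusters and 0.714 over the 125 Neat1 clusters. Clusters of 1 RNA share libraries and depth and are not replicates.

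**Figure D4:**
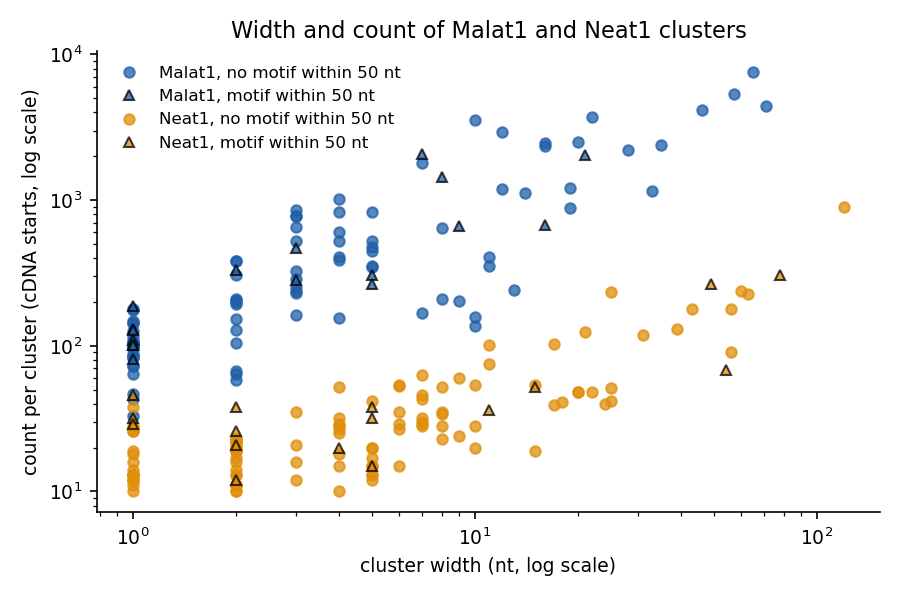
Count per cluster (cDNA starts, log scale) against cluster width (nt, log scale), 1 point per cluster, with triangles where GCATG lies within 50 nt. At a given width Malat1 clusters (blue) tend to lie above Neat1 clusters (orange), and the clusters of highest count on both RNAs are wide.

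The first base of the clusters differed between the RNAs. Among 106 Malat1 clusters 55.7% began with A and 33.0% with T, 88.7% together, while A and T make up 57.5% of the RNA. Only 4.72% began with G. The base just upstream was C in 36.8%, against 17.1% C in Malat1, 27.2% over all clusters with exonic sequence and 28.9% in exons of other lncRNA genes. On Neat1, A and T together began 64.0% of clusters, against 52.7% of the RNA, with C upstream in 31.2%. Over all 19587 clusters with exonic sequence, A and T began 59.1%.

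Malat1 held GCATG 10 times (1.43 per kb), 3 times as TGCATG, and Neat1 held it 19 times (0.915 per kb), 9 times as TGCATG. Motif sites are printed here for those with the highest nearby counts on each RNA and for a site with none, with GCATG in capitals and the summed count of clusters that hold the motif within 50 nt.
Malat1 site 7, position 3875 (2753 counts, chr19:5798781-5798810): atctgcagtattGCATGttagggatagata
Malat1 site 10, position 5751 (2332 counts, chr19:5796905-5796934): ctggagcagctaGCATGtgatgtaatgttg
Malat1 site 9, position 4750 (1734 counts, chr19:5797906-5797935): gagtggggtcagGCATGtgggtttaaagag
Malat1 site 6, position 3454 (0 counts, chr19:5799202-5799231): catggggaatgaGCATGagccagagattgt
Neat1 site 19, position 20552 (308 counts, chr19:5824910-5824939): gtctgatttcatGCATGcacttctcatgta
Neat1 site 4, position 6818 (267 counts, chr19:5838644-5838673): ttctttgtagttGCATGtattatttcttgt
Neat1 site 10, position 10259 (0 counts, chr19:5835203-5835232): ccctaaccttggGCATGcatcaatgtgaga

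Of the 10 Malat1 motifs, 9 had a cluster within 50 nt, and the median count there was 671. The median stretch between clusters was 36.5 nt on Malat1 and 81 nt on Neat1, so many positions lie near a cluster with or without a motif. The share of all positions within 50 nt of a cluster was not computed, so these numbers of motifs show no association. The Malat1 motif without a cluster was site 6. The nearest cluster to it, number 4 with 4149 counts, ended 47 nt upstream, so that 1 base of the motif fell outside the window. Clusters overlapped 5 of the 10 motifs, with 5213 counts together. Of the 19 Neat1 motifs, 13 had a cluster within 50 nt, and 4 were overlapped. The median count over all 19, those without a cluster included, was 38. Neat1 sites 7 to 10 lay between positions 9954 and 10263, the densest group of motifs on this RNA, and none had a cluster within 50 nt.

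Seen from the clusters, 17 of 107 on Malat1 (15.9%, Wilson 95% interval 10.2 to 24%) and 16 of 125 on Neat1 (12.8%, 8.03 to 19.8%) held GCATG in the cluster or within 50 nt, against 20.1% of all 19587 clusters with exonic sequence. All windows of the same lengths taken along each RNA held it in 12.4% and 8.48%. The excess was 3.51 percentage points on Malat1 and 4.32 on Neat1. The share of windows lay inside the interval on both RNAs at 10, 20 and 50 nt. At 10 nt it was 3.25% against 2.60 to 11.7% on Malat1 and 2.30% against 2.22 to 10.1% on Neat1. At 20 nt it was 5.71% against 4.49 to 15.2%, and 3.88% against 2.22 to 10.1%. At 60 and 100 nt, both chosen after seeing the data, it lay just below the interval. The values were 14.4% against 14.8 to 30.2% on Malat1 and 9.94% against 9.95 to 22.5% on Neat1 at 60 nt. At 100 nt they were 22.8% against 22.9 to 40.1%, and 15.7% against 16.0 to 30.5%. With no bases added the share of windows lay below the interval on Neat1 only (0.643% against 0.820 to 6.82%). Neighbouring clusters share motif sites, and the intervals take no account of this.

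Against the 20.1% over all clusters with exonic sequence, the same share was 30.5% in the 3233 of them in the top 10% by count. That class held 106 of the 107 Malat1 clusters. Clusters without complete exonic sequence, among them intronic ones, are not in this background. In exons of other lncRNA genes the share was 20.5% of 733 clusters, 25.1% in the top 10% by count, and 18.9% for 122 Xist clusters. Malat1 clusters are narrower than most, and a wider cluster has a longer window. With a fixed window of 50 nt on each side of the cluster 5′ end, the shares were 15.9% on Malat1, 12% on Neat1 and 17.2% on Xist. They were 17.2% in other lncRNA exons, 16.0% over all clusters with exonic sequence and 23.5% (22.0 to 25%) in those of the top 10% by count. Windows along the RNAs themselves held the motif in 11.7% on Malat1, 7.78% on Neat1, 12.7% on Xist and 11.6% on the other lncRNAs. With the fixed window the Malat1 interval (10.2 to 24%) included the shares of all clusters with exonic sequence and of those in the top 10% by count.

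None of the 12 highest Malat1 clusters held GCATG within 50 nt (0 of 12), against 15.1% of windows of their lengths. The number 12 was set after seeing that cluster 13 was the first with the motif. The 0 was thus fixed by that choice, and no interval is given for it. It also depends on the window, since cluster 4, with 4149 counts, missed site 6 by 1 base. Of the 53 Malat1 clusters with the higher counts 10 held it (18.9%, 10.6 to 31.4%), and of the 54 with the lower counts 7 held it (13%, 6.42 to 24.4%). Clusters with the motif carried 11.7% of the Malat1 count and 16.7% of the Neat1 count. With 60 nt, chosen after seeing the data, these were 17.7% and 17.8%. At 50 nt the share of the count was 23.3% over all clusters with exonic sequence, 15.6% in exons of other lncRNA genes and 47.3% on Xist. The median count of Malat1 clusters was 282 with the motif (17 clusters, range 81 to 2088) and 240.5 without it (90 clusters, range 33 to 7612), and the first range lay within the second. On Neat1 the medians were 34 and 25.

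With counts spread over the width of each cluster, count per nt was highest within 20 nt of the motif. On Malat1 it was 19.2 within 20 nt of a GCATG, 4.79 from 21 to 50 nt, 13 from 51 to 100 nt and 11.2 farther away. Much of the Malat1 count within 20 nt, 7856 in all, came from clusters 13 and 14, with 2088 and 2043 counts, both wholly inside that distance. Values without them were not computed. The positions beyond 100 nt made up 77.6% of the RNA and 76.1% of the count. On Neat1 the values were 0.721, 0.506, 0.263 and 0.272, with 84.5% of the RNA and 76.9% of the count beyond 100 nt. The ratio of the nearest to the farthest class was 1.71 on Malat1 and 2.65 on Neat1. With counts placed at cluster 5′ ends it stayed above 1 on Malat1 (1.58) and fell below 1 on Neat1 (0.823), where the 2 clusters that contain the motif and have the most counts begin 22 and 32 nt upstream of it. Placed in this way, the Neat1 count per nt was 0.230 within 20 nt and highest, at 0.903, from 21 to 50 nt.

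**Figure D5:**
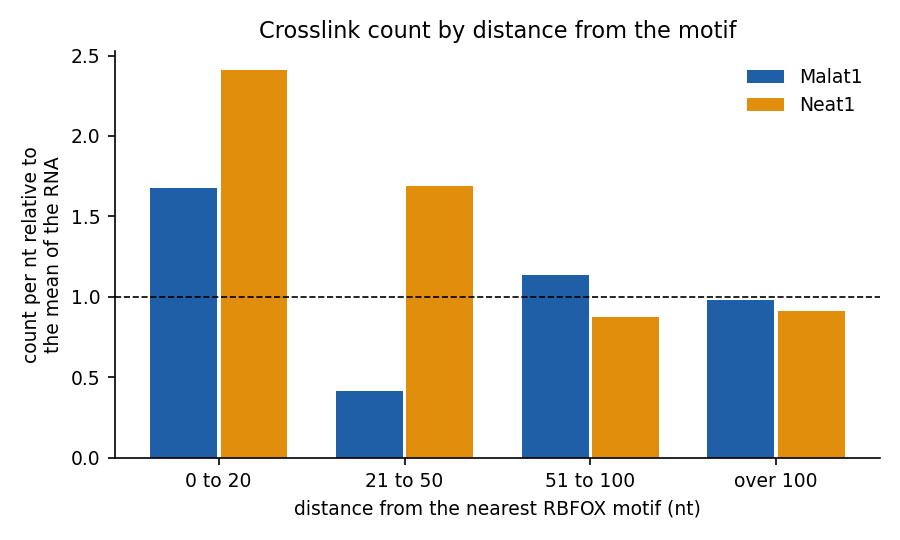
Count per nt relative to the mean of the RNA, by distance from the nearest GCATG (nt), with counts spread over the width of each cluster. Bars for Malat1 (blue) and Neat1 (orange) are highest within 20 nt, at 1.67 and 2.41, and near 1 (dashed line) beyond 100 nt. With counts at cluster 5′ ends the Neat1 order of these classes reverses.

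Of the 107 Malat1 clusters, 3 began within the motif itself, with 2043, 282 and 129 counts (sites 10, 9 and 8). Each began 2 nt after the first base of the motif, at the A of GCATG. On this RNA 55.7% of clusters began with A and 36.8% had C just upstream, with or without the motif. The same count over all clusters was not made. No Neat1 cluster began at that A.

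Pentamers that differ from GCATG by 1 or 2 bases were also searched for on the RNA strand, within 50 nt of clusters. On Malat1, GTTTG was the most frequent, in 30 of 107 clusters (28.0%, against 21.7% of windows along the RNA), and these clusters carried 42.3% of the count. GAATG was near 15.9% of clusters with 27.6% of the count, and GTATG near 7.48% with 20.6%. Their shares of clusters were below those of windows along the RNA (16.9% and 9.16%). GCTTG and GCACG were near 11.2% and 0.935% of clusters. On Neat1, GTTTG was near 20% of clusters (16.0% of windows), GCACG near 8.0% (3.06%), and GCTTG near 9.60% (15.4%). TGCATG was near 8.41% of Malat1 clusters (4.46% of windows) and 8.0% of Neat1 clusters (4.22%). The reverse complement of the motif, CATGC, was near 7.48% and 10.4%, against 7.94% and 10.02% of windows.

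Genes for proteins of the bodies in which these RNAs reside carried clusters as well. Of 20 genes for paraspeckle proteins, 19 had a cluster, with a median of 301 counts over the gene, against 53 over all genes with a cluster. The exception was Nudt21. The highest were Tardbp (1342 counts), the gene of the RNA-binding protein TDP-43, Hnrnph1 (1116), Taf15 (945) and Sfpq (794). The core paraspeckle genes Nono and Pspc1 had 210 and 115 counts. Of 24 genes for nuclear speckle proteins, 23 had a cluster, with a median of 213 counts, and Srsf1 had none. The highest were Srsf6 (2976), Son (2630), which encodes a speckle scaffold protein, Snrnp70 (2389), the U1 snRNP gene, and Srrm2 (1215). Clusters were found in 41.8% of all protein-coding genes, with a median of 63 counts. Expression was not matched in these counts.

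Of 34 names of other nuclear or abundant non-coding RNAs, 31 were found as gene names in the annotation and 24 had a cluster. Clusters were found in 8.52% of all lncRNA genes and 19.4% of all genes, and expression was not matched here either. A name not found may be another name of an annotated gene. The highest by summed count were Gm42418 (304764), Gm26561 (17706), Xist (10045) and Pvt1 (2723). The clusters of Gm26561 were all outside its exons, as were 131 of the 135 of Pvt1, unlike those of Malat1, Neat1 and Xist. No cluster was found in Meg3, H19, Miat, Tug1, Rian, Mirg or Snhg14.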

How the data were processed

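The deposited list holds clusters pooled over 3 eiCLIP libraries, with a whole-number count for each that is taken here to be cDNA starts. From the methods and the processing notes, the authors used cutadapt on the adaptors, discarded reads under 18 nt, aligned with STAR 2.4.2a (GRCm38 per the labels), kept unique hits, removed duplicates by random barcode and clustered cDNA starts with Paraclu on iMaps. Ribosomal RNA was left out by the authors. These deposited counts were not normalised, and subtraction of the input was not stated. The depth of each library is unknown, since only clusters are listed.

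Clusters were assigned by midpoint and strand to GENCODE M21 genes, and positions were counted from the RNA 5′ end. Sequence came from the transcripts of GENCODE M21. The other transcripts of Malat1 and Neat1 matched the full-length ones at every base (0 mismatches). All clusters were used, and GCATG had to lie wholly within the cluster extended by 50 nt, cut at the RNA ends. Background clusters needed complete exonic sequence in this window. Intervals are 95% exact Poisson for sums and Wilson for shares. No test was made, since there is 1 pooled list of 1 group. The clusters named are the 8 highest of Malat1, the 5 highest of Neat1 and the highest with and without the motif. The genes named are the 4 highest of each list and the 3 nearest lncRNA genes by counts per kb. The sequence and position of 1 Malat1 cluster are not reported here. Other names were added after their values were seen. The members and lists were chosen with earlier results of these data known. The motif code was tested on simulated data. Alternatives changed assignment, count filter, merging, window, motif and placement of counts. Versions were numpy 2.4.6, scipy 1.17.1, pandas 2.3.3 and matplotlib 3.10.9 under Python 3.11.15.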

Additional observations from a re-analysis of the deposited data

How the results depend on the processing

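Leaving out a library was not run, since the list is the sum of 3 libraries. No paired analysis was possible because the list sums all samples of 1 group.

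Assignment by overlap or 5′ end, and leaving out clusters with an adaptor-like heptamer (added after seeing the data; 1 Neat1 cluster), moved neither sum beyond its interval. Without the highest cluster the sums were 72503 on Malat1 and 5311 on Neat1, and without the nested gene Malat1 had 79291. Counts at or above the median of 17 left 5778 on Neat1, and the top 10% left 37 clusters with 4376 counts. Merging within 200 nt left 3 intervals on Malat1 and 27 on Neat1. The share of clusters with GCATG was 0.935%, 5.61% and 8.41% on Malat1 with 0, 10 and 20 nt added, and 2.4%, 4.8% and 4.8% on Neat1. With 100 nt, chosen after seeing the data, it was 30.8% and 22.4%. At 60 nt, also chosen later, it was 21.5% on Malat1 (interval 14.8 to 30.2%, windows along the RNA 14.4%) and 15.2% on Neat1 (9.95 to 22.5%, windows 9.94%). At 60 and 100 nt the share of windows thus fell just outside the interval, unlike at 10, 20 and 50 nt. With other motifs the Malat1 share was 8.41% for TGCATG (4.49 to 15.2%, windows 4.46%), 7.48% for CATGC, 0.935% for GCACG, 28.0% for GTTTG and 7.48% for GTATG. On Neat1 it was 8.0% for TGCATG (4.40 to 14.1%, windows 4.22%), 8.0% for GCACG and 20% for GTTTG. The ratio of counts per nt within 20 nt of GCATG to those beyond 100 nt was 1.58 on Malat1 with counts at cluster 5′ ends and 1.79 at midpoints. On Neat1 it was 0.823, a reversal, and 3.56. The shared portion of Neat1 had 2.57 times the count per kb of the long-only portion without the highest cluster of each, and 4.70 times in the top 10%.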
